A study of Mus musculus with 96 samples.

Results

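Red cells and the cells that make them carry a small set of very abundant or lineage-restricted transcripts. Of 9 listed genes of this kind, 8 matched a row by gene name among 56941 gene rows: the adult alpha globins Hba-a1 and Hba-a2, the adult beta globins Hbb-bs and Hbb-bt, the heme synthesis enzyme Alas2, the anion exchanger Slc4a1, the membrane skeleton protein Epb42 and the transcription factor Klf1. Ahsp, which encodes a chaperone of free alpha globin, is not analysed here. Rows were matched by gene name alone. They were measured by bulk RNA sequencing in 96 libraries from mice aged 2 months. Spleen gave 7 of these and heart 14, and the other 5 tissues (brain, kidney, liver, skeletal muscle, small intestine) gave 15 each.

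Besides WT mice the study used 4 strains for inducing reprogramming factors in the animal, named 4Fj, 4FsB, 4Fk and 4FsA in the labels, which give no inducing agent, driver or allele detail for any of them. All 5 genotypes are present in 6 of the tissues, and spleen has only WT, 4Fj and 4FsA, with 1 sample of 4Fj. The expression columns name the tissue and a running number, so the genotype of a library is unknown here and no strain was compared. Each tissue therefore mixes genotypes, and for spleen the tissue and its narrower mix of genotypes cannot be told apart. The labels do not say which libraries come from the same animal, so p-values measure the spread between libraries. Levels are given as CPM, a gene's share of all counts in its library times 1000000.

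Adult hemoglobin joins alpha and beta globin chains around heme. Mature mammalian red cells have lost their nucleus, but the youngest of them, the reticulocytes, still carry globin mRNA into the circulation, so any organ that holds blood can yield globin reads. Nucleated erythroid precursors of bone marrow and mouse spleen also carry the transcription factors and membrane protein mRNAs with which the cell is built. Klf1 activates the adult beta globin gene through CACC boxes, and Gata1 acts with it at many erythroid genes. The question that the members can address is where globins stood alone and where all members were present together.

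The promoters of 7 members were found in RefSeq's table for GRCm38.p6, an earlier build than the GRCm39 that the submitters' processing notes name. Each of the 5 promoters printed here covers 120 bases up to RefSeq's start of the gene. Gene spans given further on are those of GENCODE vM21, whose starts differ, so some of these windows lie partly or wholly inside the spans. They are shown because they let the duplicated beta genes be compared and because Alas2 and Klf1 represent the enzyme and the regulator. Capitals mark 4 motifs, each searched on both strands. The CACC box was searched as CACCC. The CCAAT box was searched as its 5 letters. The TATA box was searched as TATAA. The GATA motif was searched as GATAA, which shares its last 4 letters with the TATA box motif. A match on the other strand appears as the reverse complement. Upstream of the Alas2 window shown, 2 TATA box matches on opposite strands overlap.
Hba-a1, chr11:32283552-32283671, plus strand: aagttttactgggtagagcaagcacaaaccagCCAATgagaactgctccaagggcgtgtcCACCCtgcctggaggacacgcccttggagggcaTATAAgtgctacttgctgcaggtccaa
Hbb-bs, chr7:103827929-103828048, minus strand: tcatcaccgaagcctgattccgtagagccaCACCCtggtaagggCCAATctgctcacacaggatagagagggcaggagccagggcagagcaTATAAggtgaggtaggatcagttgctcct
Hbb-bt, chr7:103813924-103814043, minus strand: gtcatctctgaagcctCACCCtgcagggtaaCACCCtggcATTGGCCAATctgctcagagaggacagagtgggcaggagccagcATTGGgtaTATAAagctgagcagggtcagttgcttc
Alas2, chrX:150547297-150547416, plus strand: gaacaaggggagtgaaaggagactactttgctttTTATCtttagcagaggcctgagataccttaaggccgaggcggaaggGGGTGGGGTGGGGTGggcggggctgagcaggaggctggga
Klf1, chr8:84901862-84901981, plus strand: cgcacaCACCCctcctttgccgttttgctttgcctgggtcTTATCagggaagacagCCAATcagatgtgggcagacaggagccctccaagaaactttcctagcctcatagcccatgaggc

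Within 250 bases before the start, GATAA was found in all 7 promoters, against 22.6% of 32851 promoters of the same length. CACCC was found in 6 of the 7, Epb42 being the exception, against 52.0% of all promoters. CCAAT was found in the 4 globin promoters and in Klf1, against 33.8% of all promoters. TATAA was found in 6 of the 7, Klf1 being the exception, against 22.8%. In the 4 globin promoters a TATAA match on the sense strand lay 27 to 30 bases before the start. These matches describe letters in a window and say nothing of binding.

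The 2 alpha genes lie on chromosome 11 (GRCm38 positions 32283511 to 32284465 for Hba-a1 and 32296489 to 32297298 for Hba-a2). The 2 beta genes lie on chromosome 7 (103826534 to 103828096 for Hbb-bs and 103812524 to 103813996 for Hbb-bt). Hba-a1 and Hba-a2 coding sequences of 429 bases differed at 1 base, and the 250 bases before their starts were 97.6% identical. Hbb-bs and Hbb-bt coding sequences of 444 bases also differed at 1 base, but their 3′ untranslated regions were 70.4% identical and the 250 bases upstream were 70.9% identical. How reads shared by such copies were divided is not given in the sources used here, so the split within each pair is uncertain and the sums are safer.

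Library totals ran from 6624474 to 17882603 estimated counts, so a floor of 3 counts corresponds to 0.168 to 0.453 CPM. That floor covers counting error only. In each of the 7 tissues the summed markers of that tissue had a higher median than in the other 6. The share of mitochondrially encoded counts ran from 2.05% to 8.04% in spleen and from 29.64% to 40.25% in heart, and 2 small intestine libraries were above 50%. In bulk tissue, fewer cells of a type and less RNA per cell cannot be told apart.

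The 4 adult globins were present in every tissue and highest in spleen. Their summed level in spleen had a median of 5724 CPM and ranged from 311 to 72063 CPM. The median was 332 CPM in kidney (36.6 to 1687), 245 CPM in heart (36.3 to 3529), 98.2 CPM in brain (4.51 to 439), 85.7 CPM in skeletal muscle (22.8 to 268), 68.4 CPM in liver (21.6 to 587) and 12.1 CPM in small intestine (0.336 to 208). Spleen and the other organs overlapped: 18 libraries outside spleen, of which 8 were kidney, 6 heart, 3 brain and 1 liver, lay above the lowest spleen library.

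**Figure D1:**
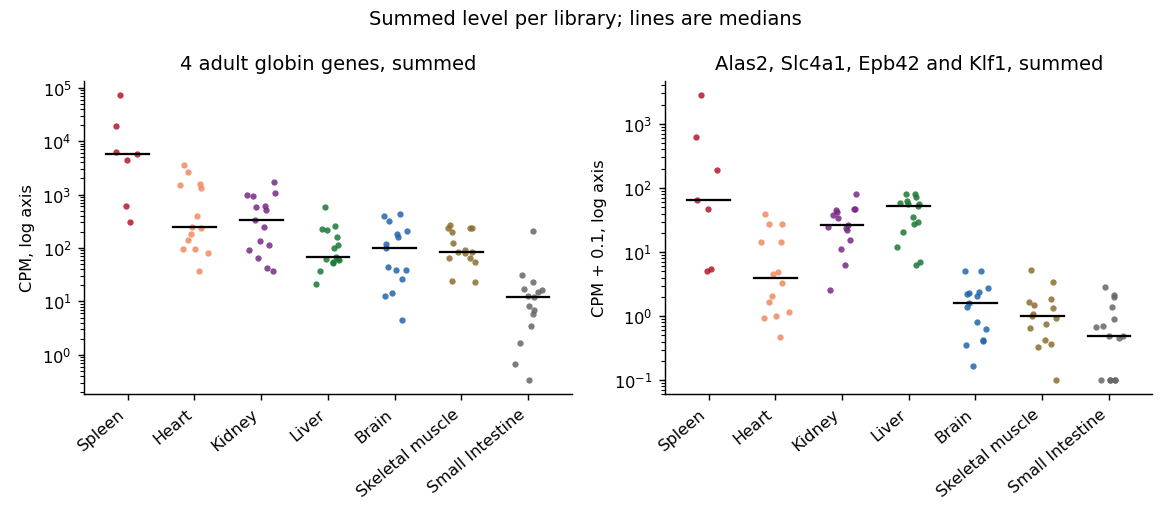
Summed level per library by tissue on log axes, with the 4 adult globins on the left (CPM) and Alas2, Slc4a1, Epb42 and Klf1 on the right (CPM + 0.1); points are libraries and lines are medians. Spleen holds the highest globin sums, up to 72063 CPM, while the right panel has a median of 51.6 CPM in liver and 65.9 CPM in spleen.

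Hbb-bs, the more abundant adult beta chain, had a spleen median of 1430 CPM and ran from 114 to 27692 CPM. Its other medians were 144 CPM in kidney (12.9 to 603), 104 CPM in heart (15.5 to 1441), 38.5 CPM in brain (1.36 to 211), 33.7 CPM in skeletal muscle (9.58 to 110), 28.6 CPM in liver (8.08 to 214) and 5.12 CPM in small intestine (0 to 71.7). The lowest spleen library was above every skeletal muscle and small intestine library and below the highest heart, kidney, liver and brain libraries. Between neighbours in that order, spleen was higher than kidney by 4.59 on the log2 scale (SE 0.80, adjusted p = 6.18e-07, edgeR quasi-likelihood test). Heart and kidney did not pass (heart minus kidney 1.46, adjusted p = 0.0548, edgeR), and the sign of this difference of fitted means is opposite to that of the medians. Heart was higher than brain (3.27, adjusted p = 2.94e-05, edgeR). Brain and skeletal muscle (brain minus muscle -1.11, adjusted p = 0.119) and liver and skeletal muscle (liver minus muscle -0.47, adjusted p = 0.533) did not pass in the same edgeR fit. Liver was higher than small intestine by 2.95 (SE 0.70, adjusted p = 0.000155, edgeR).

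Hba-a1, Hba-a2 and Hbb-bt kept nearly the same order. Hba-a1 had medians of 1442 CPM in spleen, 76.8 in kidney, 60.6 in heart, 28.1 in brain, 25.7 in skeletal muscle, 21.7 in liver and 2.35 in small intestine. Hba-a2 had medians of 1729 CPM in spleen, 92.9 in kidney, 65.9 in heart, 28.6 in skeletal muscle, 23.9 in liver, 23.8 in brain and 3.36 in small intestine. Hbb-bt, the minor adult beta chain, had medians of 412 CPM in spleen, 18.7 in kidney, 14.4 in heart, 6.64 in brain, 5.70 in liver, 4.12 in skeletal muscle and 0.746 in small intestine. Small intestine was lowest for all 4, and 2 or 3 of its 15 libraries were at 0 for each.

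Pairs of tissues were tested over all 20100 genes that passed the filter on low counts, and all 8 members passed it. Heart and kidney differed in 4 of the 8 members, none of them a globin, against 54.3% of all genes called in either direction. Slc4a1, Epb42 and Klf1 were lower in heart and Alas2 higher, and the Alas2 call (1.52, adjusted p = 0.0317, edgeR) was lost with libraries scaled by their totals alone (0.91, adjusted p = 0.218, edgeR). Heart and brain differed in 6 members (66.4% of all genes), namely the 4 globins, Alas2 and Slc4a1, all higher in heart. Brain and skeletal muscle differed in 1 member, Slc4a1 (71.6% of all genes), and that call was lost with library totals (log2 -1.05, adjusted p = 0.275, edgeR). Liver and skeletal muscle differed in 2 members, Alas2 and Klf1 (64.9% of all genes). Liver and small intestine differed in all 8 (59.7% of all genes), 7 higher in liver and Epb42 lower, and the Slc4a1 call (2.76, adjusted p = 0.0493, edgeR) was lost with library totals (2.48, adjusted p = 0.0606, edgeR).

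**Figure D2:**
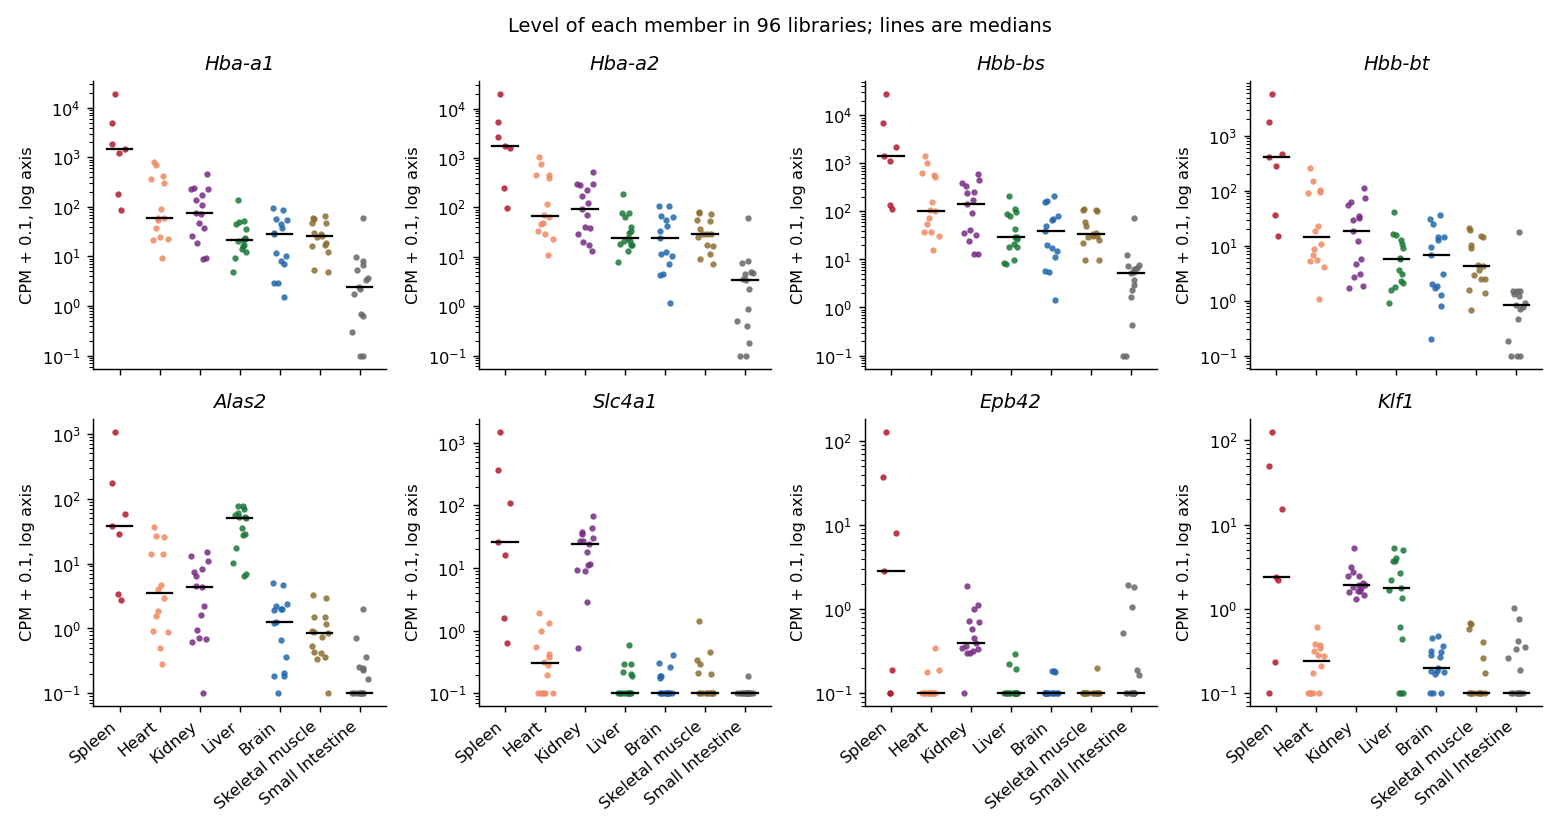
Level of each of the 8 members in the 96 libraries by tissue, as CPM + 0.1 on log axes, with points for libraries and lines for medians. The 4 globins fall from spleen to small intestine in a similar order, Alas2 has its highest median in liver, and Slc4a1 is at nearly the same median in spleen and kidney.

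Per length of transcript the globins stood far above the other members. In spleen the median was 3121 CPM per kilobase for Hba-a2, 2277 for Hbb-bs, 2063 for Hba-a1 and 586 for Hbb-bt. It was 18.2 CPM per kilobase for Alas2, 5.73 for Slc4a1, 1.52 for Klf1 and 0.662 for Epb42. In kidney the median was 229 CPM per kilobase for Hbb-bs and 5.36 for Slc4a1, and in liver it was 45.5 for Hbb-bs and 25.0 for Alas2. Transcript lengths are those of the longest protein-coding transcript of each gene in GENCODE vM21. Hba-a1 has 699 bases and Hba-a2 554, so the gap between them depends in part on this choice. Slc4a1 was given 4545 bases in every tissue, though kidney has a shorter form, so its kidney value is uncertain.

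Within the pairs, Hba-a2 made up a median of 53.0% of alpha globin counts in spleen, 53.5% in heart, 53.7% in kidney, 58.6% in liver, 53.5% in brain, 56.7% in skeletal muscle and 50.5% in small intestine. Hbb-bt made up a median of 20.0% of beta globin counts in spleen (11.5 to 22.4), 12.6% in heart (5.79 to 15.2), 11.9% in kidney (4.24 to 18.6), 13.9% in liver (6.97 to 37.6), 15.1% in brain (1.71 to 33.4) and 11.9% in skeletal muscle (5.76 to 17.0). The spleen median lies above the highest heart, kidney and skeletal muscle libraries, and the lowest spleen library lies within the range of each tissue. These shares were read only where a library held 50 or more globin counts, which left out 4 small intestine libraries. They carry no test, since they are scores over members and the split is uncertain.

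Alas2 encodes the erythroid form of the enzyme that starts heme synthesis. It was highest in liver by median, at 51.0 CPM (6.27 to 77.1), followed by spleen at 37.2 CPM (2.62 to 1062). The median was 4.31 CPM in kidney (0 to 15.0), 3.39 CPM in heart (0.186 to 37.1), 1.15 CPM in brain (0 to 4.85), 0.748 CPM in skeletal muscle (0 to 3.17) and 0 in small intestine, where 8 of 15 libraries were at 0 and the highest was 1.88 CPM. Every liver library was above every brain, skeletal muscle and small intestine library. Spleen and liver did not pass (spleen minus liver 1.30, SE 0.71, adjusted p = 0.107, edgeR). They passed with library totals alone (2.24, adjusted p = 0.00502), and without spleen library 2 the difference was -0.79 (adjusted p = 0.393, edgeR). Liver was higher than kidney (kidney minus liver -3.68, SE 0.66, adjusted p = 1.38e-06, edgeR) and than heart (heart minus liver -2.16, SE 0.63, adjusted p = 0.00208, edgeR).

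In liver no relation of Alas2 to the globins passed the test. Liver library 4, with 36.5 CPM of summed globins, held 55.5 CPM of Alas2, and liver library 1, with 226 CPM of globins, held 17.0 CPM. Across 15 liver libraries, log2(CPM + 1) of Alas2 and of Hbb-bs gave Pearson r = 0.278 (adjusted permutation p = 0.50) and Spearman rho = 0.282 (adjusted permutation p = 0.52), with r = 0.041 without the 2 libraries farthest from the median. Alas2 lies within the span of Apex2, a DNA repair gene on the opposite strand in GENCODE vM21, and strand use in counting is not given in the sources used here. Apex2 had a liver median of 9.18 CPM (4.45 to 38.3), below that of Alas2, and 8.51 CPM in kidney. Its part in the liver level of Alas2 was not tested.

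In brain, kidney and heart Alas2 followed the globins closely. Across 15 brain libraries, Alas2 and Hbb-bs gave r = 0.937 and rho = 0.975 (adjusted permutation p = 7.5e-05 and 4.3e-05), and r = 0.949 without the 2 farthest libraries. Across 15 kidney libraries they gave r = 0.957 and rho = 0.939 (adjusted permutation p = 5e-05 and 4.3e-05), and r = 0.951 without the 2 farthest. Heart libraries fell into 9 from 36.3 to 393 CPM of globins and 5 from 1303 CPM upward, so r was taken within the lower 9: r = 0.962 (exact permutation p = 0.0001, adjusted 0.0002), rho = 0.950 (exact permutation p = 0.0004, adjusted 0.0008), r = 0.944 without the 2 farthest. The relation was weaker in skeletal muscle (r = 0.666, adjusted permutation p = 0.016, rho = 0.604, adjusted permutation p = 0.044, r = 0.696 without the 2 farthest). In small intestine r was 0.803 (adjusted permutation p = 0.00023) and rho 0.688 (adjusted permutation p = 0.015), and r fell to 0.588 without the 2 farthest libraries. These come from 30 relations of Hbb-bs with 5 members in 6 tissues, adjusted together, and the libraries mix genotypes. In heart 2 relations were computed and adjusted apart from these. All permutation tests were two-sided, and the smallest unadjusted p they can give is 1e-05 with 15 libraries as drawn.

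Slc4a1 encodes band 3, the anion exchanger of the red cell membrane, and a shorter form of it works in acid-secreting cells of the kidney collecting duct. Its median was 26.0 CPM in spleen (0.546 to 1488) and 24.4 CPM in kidney (0.438 to 67.3). It was 0.202 CPM in heart (0 to 1.79) and 0 in liver, brain, skeletal muscle and small intestine, where the highest library was 0.486, 0.317, 1.35 and 0.0874 CPM. Of the small intestine libraries, 14 of 15 were at 0. Kidney was above every brain and small intestine library, while its range overlapped that of the other 4 tissues. Spleen was higher than kidney by 3.29 (SE 0.61, adjusted p = 2.42e-06, edgeR), and this call was lost without spleen library 2 (1.39, adjusted p = 0.0604, edgeR). Kidney was higher than heart (heart minus kidney -5.28, SE 0.66, adjusted p = 3.02e-11, edgeR) and than liver (kidney minus liver 7.49, SE 0.77, adjusted p = 1.41e-14, edgeR). The large fitted differences against tissues near 0 depend on the prior count of the fit.

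In kidney no relation of Slc4a1 to the globins passed the test. The kidney library with the lowest globins, 36.6 CPM, held 43.9 CPM of Slc4a1, and the one with the highest, 1687 CPM, held 29.9 CPM. Over the 15 kidney libraries Slc4a1 and Hbb-bs gave r = 0.203 (adjusted permutation p = 0.65) and rho = 0.157 (adjusted permutation p = 0.78), with r = 0.496 without the 2 farthest. In the 9 heart libraries with the least globin Slc4a1 was at most 0.327 CPM, a level of few counts. There it gave r = 0.297 and rho = 0.420 with Hbb-bs (adjusted exact permutation p = 0.4332 and 0.2685), and r = 0.811 without the 2 farthest. Over all 14 heart libraries, across the gap in globin level, the relation passed. It gave r = 0.817 (adjusted permutation p = 0.00033) and rho = 0.811 (adjusted permutation p = 0.0025), with r = 0.698 without the 2 farthest. Slc4a1 passed in no other tissue outside spleen. The 5 heart libraries above the gap are too few for r, and the heart library with 3529 CPM of globins held 1.79 CPM, or 20 counts.

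Epb42 encodes protein 4.2, which ties band 3 to the membrane skeleton. Its spleen median was 2.72 CPM (0 to 128), with 2 of 7 libraries at 0. Its kidney median was 0.299 CPM (0 to 1.80), a level of few counts. In heart, liver, brain and skeletal muscle 11 of 14, 12 of 15, 12 of 15 and 14 of 15 libraries were at 0, and the highest value in these 4 tissues was 0.242 CPM. In small intestine 9 of 15 libraries were at 0, while 2 libraries held 1.75 and 1.85 CPM. These 2 libraries had 5.77 and 17.3 CPM of globins, on either side of the small intestine median of 12.1 CPM. With Hbb-bs, Epb42 passed in liver alone, where its highest value was 0.195 CPM. There r was 0.673 (adjusted permutation p = 0.01) and rho 0.694 (adjusted permutation p = 0.007), with r = 0.462 without the 2 farthest libraries. Kidney was higher than heart (heart minus kidney -3.16, SE 0.81, adjusted p = 0.000545, edgeR) and than liver (3.30, adjusted p = 0.000462, edgeR). Kidney and small intestine differed in 7 of 8 members (60.2% of all genes), and Epb42 was the exception (kidney minus small intestine 0.69, adjusted p = 0.352, edgeR).

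Klf1 encodes the erythroid transcription factor that drives adult beta globin. Its medians were 2.32 CPM in spleen (0 to 125), 1.81 CPM in kidney (1.22 to 5.19) and 1.65 CPM in liver (0 to 5.11). They were 0.142 CPM in heart (0 to 0.504), 0.0992 CPM in brain (0 to 0.378) and 0 in skeletal muscle and small intestine, where the highest libraries were 0.577 and 0.926 CPM. Every kidney library was above every heart, brain, skeletal muscle and small intestine library. With Hbb-bs, Klf1 passed in skeletal muscle alone, where 9 of 15 libraries were at 0. There r was 0.636 (adjusted permutation p = 0.025) and rho 0.592 (adjusted permutation p = 0.049), with r = 0.647 without the 2 farthest libraries. Spleen was higher than kidney by 3.32 (SE 0.72, adjusted p = 4.2e-05, edgeR) and than liver by 2.76 (SE 0.71, adjusted p = 0.000528, edgeR). Without spleen library 2 the first was 1.89 (adjusted p = 0.0244, edgeR), and the second was lost (1.34, adjusted p = 0.118, edgeR). Kidney and liver did not pass (kidney minus liver -0.55, SE 0.61, adjusted p = 0.468, edgeR). Heart was lower than liver (heart minus liver -3.78, SE 0.73, adjusted p = 4.54e-06, edgeR).

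Kidney and liver thus differed in 3 of 8 members, with Slc4a1 and Epb42 higher and Alas2 lower in kidney, against 50.9% of all genes. The 4 globins were not called in that comparison (for Hbb-bs 1.17, adjusted p = 0.129, edgeR), but all 4 were called higher in kidney when scaled by library totals alone (for Hbb-bs 1.81, adjusted p = 0.0184, edgeR). Heart and liver differed in 7 of 8 members, against 62.4% of all genes, with the globins and Slc4a1 higher in heart, Alas2 and Klf1 higher in liver, and Epb42 not called. In both kidney and liver Klf1 was measured beside almost no Gata1: 14 of 15 kidney libraries and 12 of 15 liver libraries had Gata1 at 0, and its highest value was 0.106 and 0.193 CPM.

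The members were next counted together in each library. At 1 CPM or more, all 4 globins were present in 74 of 89 libraries outside spleen. In 46 of those, Slc4a1, Epb42 and Klf1 were all below 1 CPM: 11 heart, 13 brain, 13 skeletal muscle, 5 liver and 4 small intestine libraries. All 8 members reached 1 CPM in 3 of 7 spleen libraries and in 2 of 15 kidney libraries. No other library reached this level for all 8. With the floor of 3 counts in place of 1 CPM, all 8 were present in the same number of spleen libraries, 3, in 9 kidney libraries and in 1 heart library. At that floor the globins were present without Slc4a1, Epb42 and Klf1 in 31 libraries: 5 heart, 8 brain, 10 skeletal muscle, 3 liver and 5 small intestine. Both counts depend on the globin level, since scarce members fall below a fixed floor where globins are low. Brain had a globin median of 98.2 CPM, and its Klf1 median per 1000 globin counts was 1.87, against 1.74 in spleen. As a ratio of summed counts, Klf1 gave 1.01 in brain and 1.72 in spleen. Brain Klf1 had a median of 0.0992 CPM, a level of few counts, so its ratio is uncertain. The counts therefore cannot tell a lower ratio to globins from a lower globin level.

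Set against the globins, the other 4 members together had a median of 17.2 counts per 1000 globin counts in spleen (8.22 to 38.9), 10.7 in heart (8.54 to 20.8), 13.1 in brain (4.88 to 72.7) and 8.06 in skeletal muscle (0 to 40.2). The median was 73.6 in kidney (25.6 to 1275) and 490 in liver (90.8 to 1582). In the 11 small intestine libraries with enough globin counts it was 23.0 (0 to 358). Alas2 alone gave 8.45 per 1000 globin counts in spleen, 9.84 in heart, 10.1 in kidney, 10.9 in brain and 6.67 in skeletal muscle, against 446 in liver. Slc4a1 gave 4.11 in spleen, 0.266 in heart and 59.2 in kidney. For Alas2 the ranges were 5.48 to 14.7 in spleen, 4.18 to 19.5 in heart, 0 to 18.5 in kidney and 0 to 25.8 in brain, so these 4 tissues overlapped. Klf1 gave 1.74 in spleen, 0.322 in heart, 6.23 in kidney, 9.11 in liver, 1.87 in brain and 0 in skeletal muscle and small intestine. Epb42 gave 0.430 in spleen, 1.52 in kidney and 0 in the other tissues. These ratios carry no test, and those of Klf1 in heart and brain rest on few counts.

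**Figure D3:**
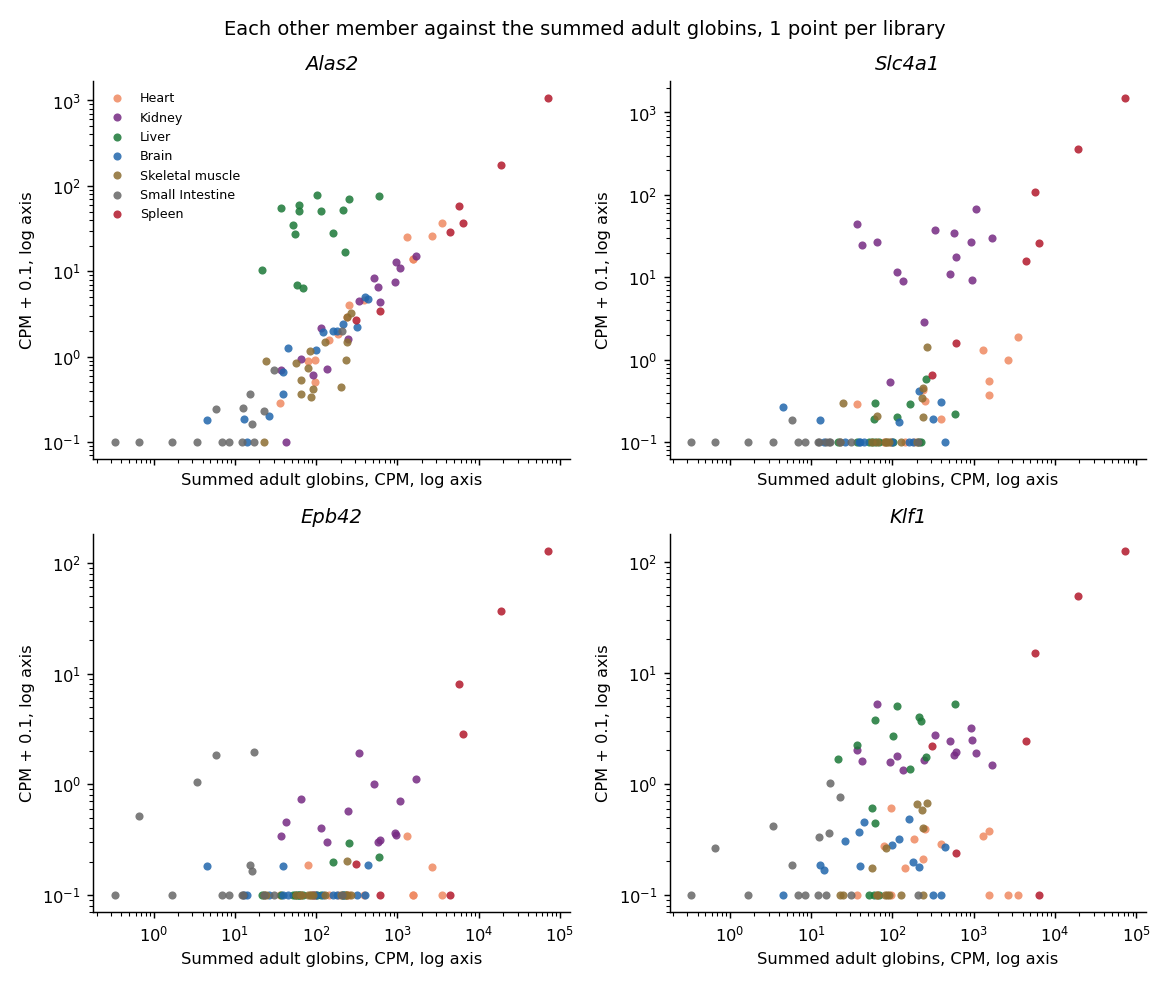
Alas2, Slc4a1, Epb42 and Klf1 (CPM + 0.1) against the summed adult globins (CPM) on log axes, 1 point per library, coloured by tissue. In spleen, heart, kidney and brain Alas2 lies along the globins, in liver it lies between 6.27 and 77.1 CPM over globin sums of 21.6 to 587 CPM, and Slc4a1 in most kidney libraries and Klf1 in kidney lie above heart, brain, skeletal muscle and small intestine, while Klf1 in liver, from 0 to 5.11 CPM, overlaps them.

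Libraries of similar globin level were also set side by side. Spleen library 9 and heart library 1 held 4386 and 3529 CPM of globins and 370 and 414 counts of Alas2. The spleen library held 205 counts of Slc4a1 and 30 of Klf1, and the heart library 20 and 0, while Epb42 was at 0 in both. Spleen library 8 and liver library 14 held 602 and 587 CPM of globins. The spleen library held 24 counts of Alas2, 11 of Slc4a1 and 1 of Klf1, and the liver library 627, 1 and 42. A single pair of libraries has no replicate check.

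Spleen was compared with the mean of the other 6 tissues in the same edgeR fit. All 8 members were higher in spleen, against 29.3% of all genes called higher and 26.7% called lower (5898 and 5360 of 20100). With library totals alone these numbers became 9796 and 2280, so that the share of higher calls went from 52.4% to 81.1%. The median log2 fold change over all genes went from -0.09 to 0.71. The members' median was 5.79. Slc4a1 had the largest difference (log2 9.56, SE 0.39, adjusted p = 2.56e-39), followed by Epb42 (7.89, SE 0.44, adjusted p = 3.77e-30). The contrast averages log2 differences, which for Slc4a1 ran from 3.29 against kidney to 13.5 against small intestine. The 4 globins lay between 5.64 for Hbb-bs and 6.02 for Hbb-bt, each with an SE of 0.44 to 0.47 and an adjusted p of at most 1.8e-20. Klf1 was higher by 5.44 (SE 0.43, adjusted p = 1.69e-20) and Alas2 by 5.34 (SE 0.43, adjusted p = 2.43e-20).

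Library 2 of spleen set much of the size of these differences. Without it all 8 stayed called in the edgeR fit, but Alas2 went to 3.26 (adjusted p = 1.04e-08), Hbb-bs to 3.99 (adjusted p = 1.62e-11), Klf1 to 4.02 (adjusted p = 9.12e-12) and Slc4a1 to 7.65 (adjusted p = 1.33e-31). Epb42 went to 6.07, Hba-a1 to 4.36, Hba-a2 to 4.46 and Hbb-bt to 4.56. Leaving out any of the other 6 spleen libraries moved no member by over 1.5-fold. Library 2 also held 4737 CPM of the summed liver markers, against 5.30 to 50.6 CPM in the other 6 spleen libraries. The part of liver RNA in the members' levels there was not tested.

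Against single tissues, spleen was higher in all 8 members than heart (33.9% of all genes called higher), kidney (30.3%), brain (30.8%), skeletal muscle (34.1%) and small intestine (28.1%). Against liver it was higher in 7, all but Alas2 (33.2% of all genes). By fitted means heart came closest to spleen for the globins, while by medians kidney did, and the 2 did not pass against each other. Spleen was higher than heart by 3.13 for Hbb-bs (SE 0.79, adjusted p = 0.000409, edgeR). Without spleen library 2 that call was lost (1.47, adjusted p = 0.101, edgeR), as was Alas2 against heart (3.46 with all libraries, 1.37 without, adjusted p = 0.0971, edgeR). The calls of Slc4a1 against kidney and Klf1 against liver were the other 2 lost without that library.

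**Figure D4:**
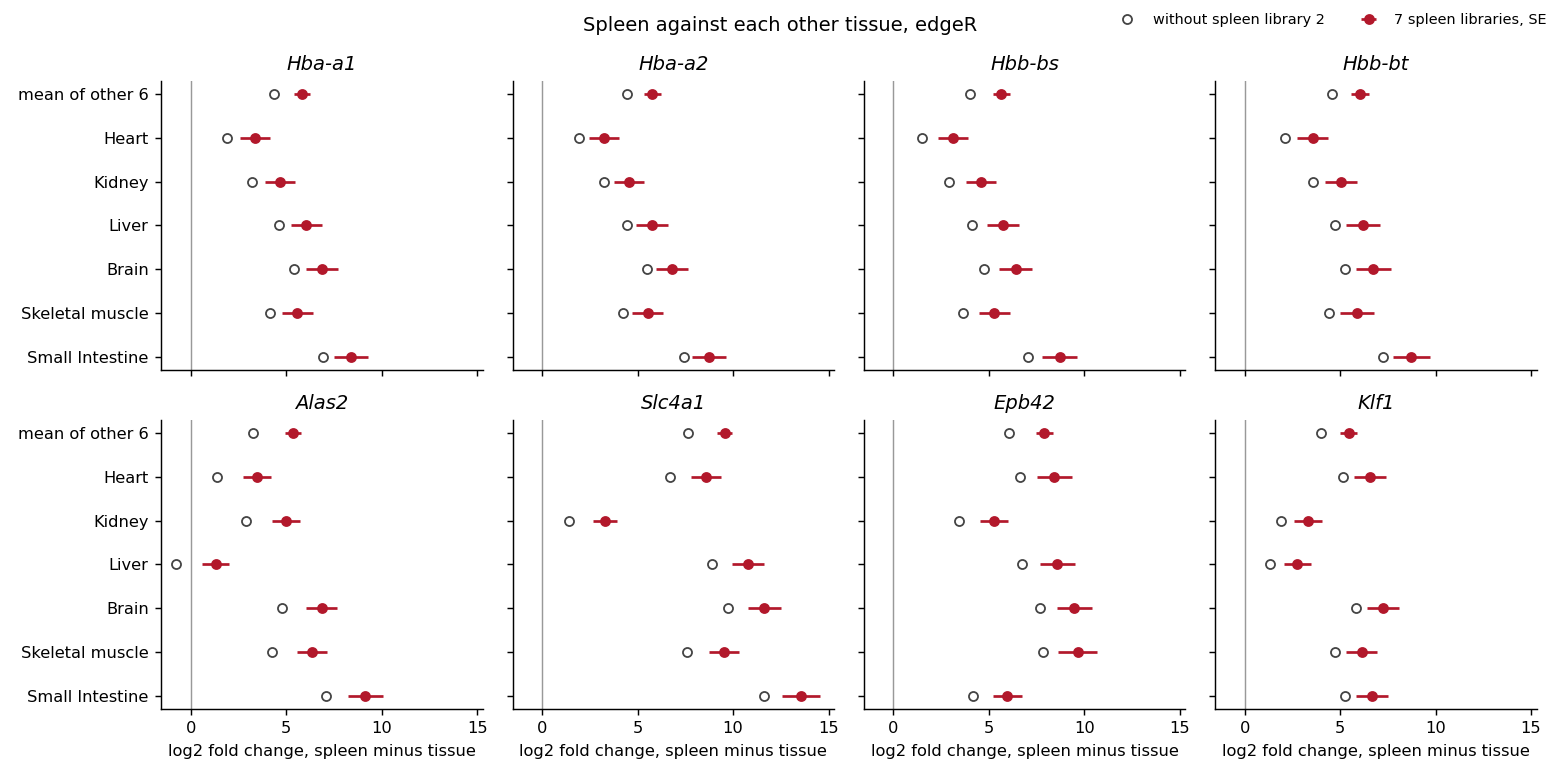
Log2 fold change of each member in spleen minus each other tissue and minus the mean of the 6, from edgeR; filled points with bars are estimates with SE from all libraries and open points are estimates without spleen library 2. All filled points are above 0, and the open point for Alas2 against liver lies at -0.79.

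The 7 spleen libraries differed widely among themselves. In libraries 1, 2, 3, 4, 7, 8 and 9 the summed globins were 19010, 72063, 5724, 311, 6337, 602 and 4386 CPM. Libraries 1 and 2 stood highest, and libraries 4 and 8 lay within the range of heart and kidney. Hbb-bs was 6865, 27692, 2176, 114, 1430, 134 and 1139 CPM in that order. Alas2 was 177, 1062, 58.6, 2.62, 37.2, 3.30 and 28.6 CPM. Slc4a1 was 362, 1488, 109, 0.546, 26.0, 1.51 and 15.9 CPM. Both followed the globins in order of level apart from library 7, which held slightly more globin than library 3 but less Alas2 and Slc4a1.

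Epb42 and Klf1 separated libraries of like globin level. Epb42 was 37.0, 128, 8.03, 0.0910, 2.72, 0 and 0 CPM in libraries 1, 2, 3, 4, 7, 8 and 9. Klf1 was 49.1, 125, 15.1, 2.09, 0, 0.138 and 2.32 CPM. Library 7 thus had no Klf1 count at 6337 CPM of globins, while library 3 had 15.1 CPM of Klf1 at 5724 CPM. Gata1 was 38.6, 92.1, 10.9, 5.19, 11.4, 2.75 and 6.27 CPM, so it was present in all 7. Per 1000 globin counts the other 4 members gave 32.9, 38.9, 33.3, 17.2, 10.4, 8.22 and 10.7.

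The dividing-cell gene Mki67 was 408, 598, 177, 52.7, 143, 80.2 and 56.0 CPM in the same libraries, and was highest where the globins were. The neutrophil gene S100a8 was 52.2, 328, 43.8, 92.5, 4.84, 1.93 and 11.3 CPM, and the platelet gene Ppbp was 58.6, 209, 85.7, 9.37, 10.9, 10.3 and 29.7 CPM. The part of these cell types in the members' levels was not tested. Genotypes of these libraries are unknown here.

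**Figure D5:**
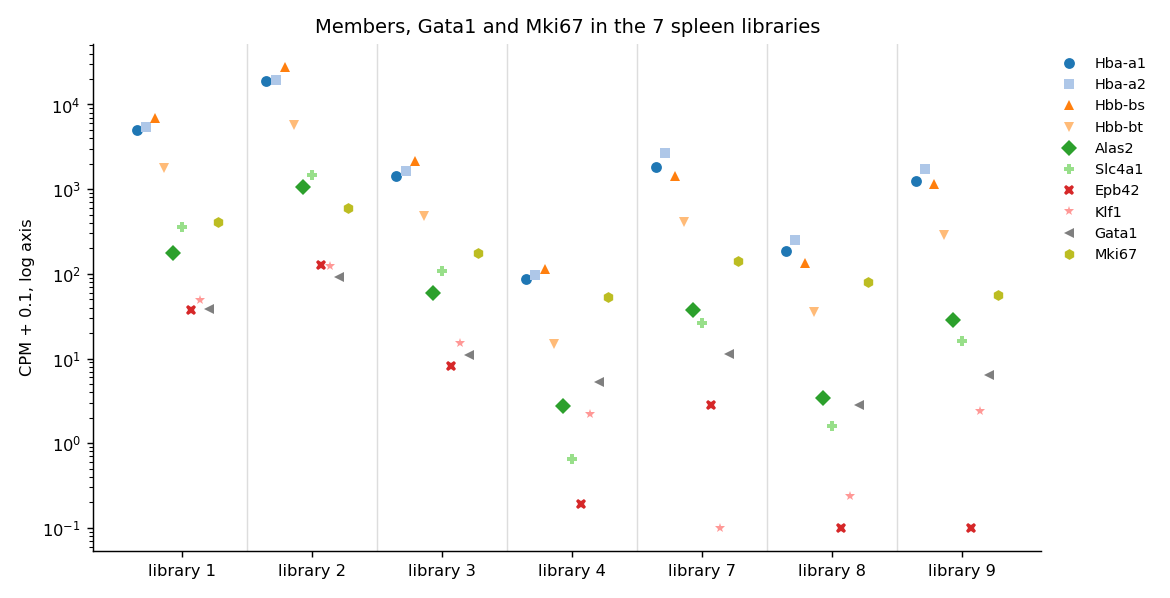
Level of the 8 members, Gata1 and Mki67 in each of the 7 spleen libraries, as CPM + 0.1 on a log axis; markers at 0.1 are counts of 0. Libraries 1, 2 and 3 hold all 10 genes above 8 CPM, while Klf1 is at 0 in library 7 and Epb42 in libraries 8 and 9.

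Other genes of the red cell were taken from lists and tested in the same contrast of spleen with the mean of the other tissues. The lists were chosen with results of these data known, and spleen library 2 and the scaling set several of their counts. The filter on low counts was set by tissue, so a gene seen in spleen alone could pass it only through spleen. The higher call of such a gene was then fixed in advance. In this contrast 29.3% of all genes were called higher and 26.7% lower. With library totals alone 9796 of 20100 genes were higher and 2280 lower. Of 16 genes of the red cell membrane and skeleton, 12 were tested, 9 were higher, 1 was lower and 2 were not called, with a median log2 fold change of 2.57 against -0.09 over all genes. Among the 3 largest were the Rh blood group gene Rhd (8.28, adjusted p = 1.89e-39) and Ermap (7.14, adjusted p = 1.13e-32), by edgeR. Gypc, which encodes a red cell surface protein, had the highest spleen median of that list, at 37.4 CPM. Tmod1, which caps actin filaments in muscle as well as in red cells, was lower (-2.06, adjusted p = 2.96e-07, edgeR). Without spleen library 2, 7 were higher and the median was 1.62. The lost calls were those of the ankyrin gene Ank1 (-0.19, adjusted p = 0.824, edgeR) and Dmtn (0.12, adjusted p = 0.821, edgeR).

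Erythroid transcription factors were higher as a group: 7 of 7 tested, of 8 listed, with a median of 4.71, against 29.3% of all genes. Gata1 had the largest difference (9.51, SE 0.33, adjusted p = 1.51e-40), followed by Nfe2 (6.12) and Gfi1b (6.07), both called by edgeR. Outside spleen Gata1 was at most 0.194 CPM in any library, so it passed the filter on low counts through spleen alone. Its higher call was thereby fixed in advance and is no evidence for the group. The size of its difference depends on the prior count of the fit. Bcl11a, which is also a B cell factor, had the highest spleen median, at 112 CPM. The count was also 7 of 7 without spleen library 2, with a median of 4.69, and with library totals.

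Heme synthesis genes other than Alas2 had smaller differences. Of 11 tested, 3 were higher, 1 was lower and 7 were not called, with a median of 0.16. Among all genes 29.3% were higher and 26.7% lower, so the share of higher calls in this list was near that of all genes. Library totals alone gave 9 higher and 1 lower, with a median of 0.89, and leaving out spleen library 2 gave 3 higher and 5 lower, with a median of -0.44. Fech, which inserts the iron, was among those lower without that library (-1.50, adjusted p = 2.78e-07, edgeR), and was not called with it. Alas1, the form of the first enzyme used outside the red cell lineage, was lower in spleen (-2.08, adjusted p = 1.88e-06, edgeR). The mitochondrial iron importer Slc25a37 was higher (2.06, adjusted p = 4.79e-13, edgeR), with a spleen median of 159 CPM.

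Of 9 genes of the erythropoietin response and iron uptake, 8 were tested, 3 were higher, 1 was lower and 4 were not called, with a median of 0.17. The shares over all genes were 29.3% higher and 26.7% lower. The erythropoietin receptor Epor was higher (2.61, adjusted p = 2.59e-10), as were Kit (1.10, adjusted p = 0.00936) and the transferrin receptor Tfrc (0.88, adjusted p = 0.0417), by edgeR. The Tfrc call was lost without spleen library 1 (0.85, adjusted p = 0.0761, edgeR) and without library 2 (0.09, adjusted p = 0.909, edgeR). Without library 2 the list had 2 higher and 2 lower and a median of -0.45, and with library totals 5 higher and 0 lower and a median of 0.97. The lower gene was the iron transporter Slc11a2 (-0.64, edgeR), whose call was lost and turned in sign with library totals (0.16, adjusted p = 0.627, edgeR). Epo itself was at 0 in all 7 spleen libraries and in 14 of 15 kidney libraries, whose highest value was 0.191 CPM. Trf, which encodes transferrin, had the highest spleen median, at 201 CPM, and was not called (0.43, adjusted p = 0.465, edgeR), though it was with library totals (1.11, adjusted p = 0.0407, edgeR).

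Of 16 late red cell maturation genes, 15 were tested, 10 were higher and 5 were not called, with a median of 1.26. The share of higher calls over all genes was 29.3%. The largest were Trim10 (8.60), the carbonic anhydrase Car1 (8.12) and Tspo2 (6.37), each with an adjusted p of at most 3.3e-23 in edgeR. Mkrn1 had the highest spleen median, at 163 CPM. The summed list had a median of 757 CPM in spleen, 760 in kidney and 1081 in brain, and less in the remaining tissues. Without spleen library 2 the list had 8 higher and 3 lower, with a median of 0.76, and with library totals 14 higher and 0 lower. Bpgm, which makes the compound that loosens oxygen from hemoglobin, lost its call without that library (-0.36, adjusted p = 0.383, edgeR), and the antioxidant gene Prdx2 became lower (-1.02, adjusted p = 0.000335, edgeR).

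Of 12 other globin genes, 10 had a row and 4 passed the filter, of which 1 was higher, 1 lower and 2 not called (median -0.48). The embryonic beta-like gene Hbb-y was called higher in spleen (3.99, SE 0.66, adjusted p = 2.11e-07, edgeR) on the strength of 1 library. It was at 0 in 5 of 7 spleen libraries and at 17.4 CPM in spleen library 4, the one with the lowest adult globins. Without library 4 the difference was -0.93 (adjusted p = 0.966, edgeR). In liver Hbb-y reached 18.5 and 18.6 CPM in the 2 highest libraries, with a median of 0.354 CPM and 5 of 15 libraries at 0. Myoglobin, Mb, the oxygen store of heart and muscle, was lower in spleen (-8.22, adjusted p = 1.84e-09, edgeR). Cygb, which encodes cytoglobin, had the highest spleen median of the list, at 45.4 CPM.

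All tested markers of several other blood and spleen cells were higher in spleen than in the mean of the other tissues. They were those of platelets and megakaryocytes (9 of 9, median 4.25), neutrophils (9 of 9, 3.94), lymphocytes (8 of 8, 8.40), spleen tissue (8 of 8, 7.72) and cell division (8 of 8, 3.83). These counts were the same without spleen library 2, where the medians were 3.41 for platelets and 2.81 for neutrophils. For comparison with these and the following lists, 29.3% of all genes were called higher and 26.7% lower. The largest differences were those of Ppbp (7.01), Treml1 (5.91) and Gp9 (5.52) among platelet genes, and of Mpo (8.57), Camp (8.42) and Ngp (6.96) among neutrophil genes. Cd79a (9.07) and Ms4a1 (8.91) were among the 3 largest of the lymphocyte genes, and Mki67 (5.12), Top2a (4.71) and Bub1 (4.43) were largest among dividing-cell genes. The highest spleen medians in these lists were 35.2 CPM for Itga2b, 67.6 CPM for S100a9, 972 CPM for Cd79a and 143 CPM for Mki67. Of the red pulp macrophage markers 7 of 8 were higher (median 3.62), led by Spic (7.61), Cd5l (5.76) and Treml4 (5.39), and Vcam1 had the highest median at 476 CPM. Of 7 markers of blood vessel endothelium, Pecam1 was higher (1.59), Emcn (-1.13) and Tek were lower and 4 were not called (median -0.35), while library totals gave 2 higher and 0 lower (median 0.52). Summed, the platelet list had a median of 108 CPM in spleen (57.8 to 547) and 116 CPM in small intestine (0.139 to 374). In the remaining tissues its medians ran from 5.10 CPM in skeletal muscle to 9.58 CPM in kidney. Outside spleen the neutrophil list had summed medians from 2.65 CPM in small intestine to 20.6 CPM in liver, against 286 CPM in spleen. Markers of other tissues in spleen were mixed: none of the kidney, skeletal muscle or small intestine markers were higher, while 2 of 6 liver markers, 1 heart marker and 1 brain marker were. Without spleen library 2 no liver marker was higher and 4 were lower, and the median of the list went from 0.76 to -3.98. With library totals alone 3 liver and 3 brain markers were higher.

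The genes whose level moved most like the summed globins were ranked over all 96 libraries after each tissue's mean log2(CPM + 1) was subtracted. Among the 10 highest of 16804 genes were Gng11 (rho = 0.689), Myo1f (0.659), Cx3cr1 (0.634), Phf11b (0.633), Slfn8 (0.630), Aif1 (0.628), Lgals1 (0.625), Trem2 (0.622) and Ppbp (0.618). Of those named, Ppbp is in the platelet list above and the others are in none of the lists. For Klf1 over the 7 spleen libraries, 14 of 15514 genes had the same order exactly (rho = 1.0), of which the first 10 in alphabetical order are E2f7, Eif4a3, Gars, Hk1, Ints14, Larp1b, Ly6g6f, Marchf3, Phkg1 and Phyhip. With 7 libraries such ties carry little information.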

How the data were processed

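Total RNA from frozen tissue was sequenced as cDNA libraries, per the labels' protocols. The authors deposited estimated counts per gene and a second table of normalised values, whose unit was taken as a signal. The submitters' processing notes name GRCm39 and DESeq2. For the aligner, counter, annotation and strand setting, nothing is given in the sources used here. Columns were assigned to tissues by their tissue code, and no genotype was inferred. The members and gene lists were chosen with earlier results of these data known. Named genes of a list are the 3 called genes with the largest change and the one with the highest spleen median, plus Gata1, Tfrc, Epor, Epo and Mki67; markers of the 7 tissues are given as counts. Some genes that this rule names are not reported here. S100a8, Apex2, Ank1, Dmtn, Fech, Bpgm and Prdx2 were named after their values were seen.

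CPM used each library's total. Estimated counts were rounded, and edgeR 4.0.16 (TMM, filterByExpr, quasi-likelihood test, tissue as the only term) was fitted to all 96 libraries, with Benjamini-Hochberg adjustment over 20100 genes and a threshold of 0.05. Alternatives used DESeq2 1.42.0, library totals, TMM without globin and mitochondrially encoded genes, no filter, fewer libraries, and limma 3.58.1 on the deposited signal (added after seeing the data, as were the list counts under library totals and without each spleen library, the spleen pairs without each, and Slc4a1 with Hbb-bs in heart). The edgeR script was tested on simulated data. Among 637 library pairs within a tissue, 0 were identical.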

Additional observations from a re-analysis of the deposited data

Results flagged for a closer look

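Among 14 quantities looked at over the 7 spleen libraries, 10 had 1 library whose distance to its nearest neighbour took up more than 0.568 of the whole range, the 95% critical value of Dixon's test for 7 samples. Chance marks about 1 in 20 groups when values are normally distributed. The levels here were CPM without logs and are skewed, from 311 to 72063 CPM for the globin sum, so that rate need not hold. These quantities are also not independent of each other. In all 10 the library was spleen library 2, at the top. Its values were 18923 CPM for Hba-a1, 19682 for Hba-a2, 27692 for Hbb-bs, 5766 for Hbb-bt, 1062 for Alas2, 1488 for Slc4a1, 128 for Epb42 and 125 for Klf1. The summed adult globins reached 72063 CPM there and the sum of the other 4 members 2804 CPM. The share of the range taken by the gap was 0.739 for the globin sum and ran from 0.608 for Klf1 to 0.836 for Alas2 among the members. The 4 ratios within the members, such as alpha to beta globin, had no library set apart in this way. This library also held 4737 CPM of summed liver markers, whose part in these levels was not tested. The genotype of this library is unknown here.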

How the results depend on the processing

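All 8 members were called higher in spleen than in the mean of the other tissues under each alternative run, and the 104 recomputed log2 fold changes of single members kept their direction and stayed past the threshold. The count of all genes called did move. With library totals alone 9796 genes were higher and 2280 lower, and with no filter on low counts 10791 were higher. DESeq2 called 5791 genes higher and 6113 lower. Leaving out 1 spleen library at a time gave 5568 to 5790 genes higher and 4843 to 5318 lower. The other members per 1000 globin counts in spleen were 33.6 as a ratio of summed counts, against a median of 17.2 over libraries. By tissue pair, 123 of 168 combinations of member and pair were called, of which 119 were called the same way with library totals and 123 by DESeq2. In the pairs without spleen given above, 50.9% to 71.6% of all genes were called in either direction. Of 168 tissue medians recomputed with another denominator, 168 moved by less than 1 SD of CPM between the libraries of the tissue. That SD is wide where libraries differ much, and a median of 0 stays at 0, so few changes could have exceeded it. TMM effective library sizes changed the medians by 0.554 to 1.99 times. Among the recomputed member differences the lowest was 2.73 for Klf1, in the limma fit to log2(value + 1) of the deposited signal. No paired analysis was possible because the columns carry no replicate number of the labels, and the fit with the replicate as a block was not run. Values under 3 counts, 0.168 to 0.453 CPM, limit Slc4a1 outside spleen and kidney, and Klf1 outside spleen, kidney and liver. They limit Epb42 in every tissue, since it reached 3 counts beside the globins in only 10 of 15 kidney and 4 of 7 spleen libraries. Klf1 did so in 5 of 7 spleen libraries. Alas2 is limited too, as it did so in 11 of 15 brain and 3 of 15 small intestine libraries.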

Other observations

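The balance of alpha to beta globin counts was uneven among spleen libraries. It was 1.21, 1.15, 1.16 and 1.41 in libraries 1, 2, 3 and 4, and 2.44, 2.55 and 2.08 in libraries 7, 8 and 9. Hba-a2 as a share of alpha globin was 52.3%, 51.0%, 53.0% and 52.7% in the first 4 and 59.3%, 57.3% and 58.4% in the other 3. Both quantities were computed from the same globin counts. Outside spleen the median ratio lay between 1.07 in brain and 1.35 in kidney, with a range of 1.04 to 1.38 in heart and 0.512 to 2.81 in liver.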
